A study of Homo sapiens with 18 samples.

Results

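PC-9 and HCC827, established lung cancer cell lines that are both labelled with an exon 19 deletion of EGFR, were compared with each other at baseline, without SYK knockdown. Each line was represented by 3 libraries of cells that stably carried the negative control (nc) of an shRNA against SYK (shSYK), delivered by lentivirus, so both lines shared the lentiviral selection and neither was an untouched parental culture. These 6 libraries of 18 in the series were chosen by their labels, without use of any measured value. The series as a whole asks how transcriptomes change with stable SYK knockdown in these lines and in EBC-1. Nothing in the labels says that the 3 libraries of a line came from separate cultures, so the p-values measure the spread between these libraries, which may be technical. The lines were deposited in separate tables, and the line therefore cannot be told apart from its table, its culture or its sequencing run.

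Reads on genes numbered between 9362879 and 10856326 per PC-9 nc library and between 7920099 and 12451217 per HCC827 nc library. Values are FPKM, fragments per kilobase of gene divided by a measure of library size, rescaled so that the 6 libraries had an equal sum, and each gene was compared on log2(rescaled FPKM + 1). A difference is PC-9 minus HCC827, so that a positive value means a higher level in PC-9. Counts at 2-fold and 8-fold use a difference of at least 1 and 3 on the log2 scale of the fit. Folds of single genes are ratios of mean rescaled FPKM. The added 1 shrinks differences at low levels, where the ratio of means is larger. Of 58302 genes in the tables, 12402 had a mean rescaled FPKM of at least 1 over the 6 libraries and were tested with limma, with Benjamini-Hochberg adjusted p-values. The labelled cell type was checked first. All 7 markers of epithelial lung cancer cells were expressed in both lines, with KRT19 at 1812 in HCC827 and 2177 in PC-9 and EPCAM at 95.8 and 107. The summed level of 11 fibroblast markers ranged from 1.2 to 1.8 in HCC827 and from 86.2 to 110.3 in PC-9, of which FBLN1 gave 91.0 and COL1A1 7.21, both called higher in PC-9, whereas COL3A1, LUM, PDGFRA, THY1 and POSTN were at 0 in both lines. The 12 leukocyte markers summed to at most 2.9 and 4.9, and the 8 endothelial markers to at most 0.3 and 17.9, of which PECAM1 gave 14.3 and CDH5 2.58, both called higher in PC-9, while TEK, ERG and EMCN were at 0. In such bulk samples fewer cells of a type and less RNA per cell cannot be told apart, and the part of other cells in the results was not tested.

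EGFR is the receptor tyrosine kinase whose exon 19 deletions keep it active without ligand, and tumours that carry them depend on its signal. Lines from different tumours share such a driver but differ in lineage program, in the copy number of chromosome segments and in the genes silenced by DNA methylation. Lung adenocarcinomas often keep the program of alveolar cells under the transcription factor NKX2-1, and loss of it is accompanied in many tumours by genes of other epithelia.

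The libraries of the lines lay far apart. At an adjusted p under 0.05, 7659 genes differed, 61.8% of those tested, with 4325 (34.9%) higher in PC-9 and 3334 (26.9%) higher in HCC827. Without adjustment, 8152 genes had a p under 0.05. With a difference of at least 2-fold added, 1901 genes (15.3%) were higher in PC-9 and 1202 (9.69%) higher in HCC827, and at least 8-fold differences were found in 217 (1.75%) and 135 genes (1.09%). The median difference over all tested genes was 0.10, and it moved to -0.05 with FPKM as deposited, -0.02 with median-of-ratios scaling, 0.04 with an equal sum over nuclear protein-coding genes and -0.04 with quantile normalization. The split of the calls moved with it, from 4325 higher and 3334 lower in PC-9 to 3517 and 4071 with FPKM as deposited. At 2-fold it moved from 1901 and 1202 to 1563 and 1514 with FPKM as deposited and to 2127 and 1904 with limma-voom on the recovered reads, and differences smaller than this shift change sign with the scaling. The spread within a line was larger in PC-9, with a median SD over genes of 0.18 on the log2 scale against 0.09 in HCC827.

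The largest differences were close to presence against absence. TIMP3, an inhibitor of metalloproteinases bound to the extracellular matrix, had 0 reads in all HCC827 libraries and 161, 157 and 167 rescaled FPKM in the PC-9 libraries (log2 difference 7.35 ± 0.07 SE, adjusted p = 2.5e-08), which is at least 2498-fold higher when 3 reads per library are taken as the floor. SULF2, a sulfatase that trims heparan sulfate, was likewise at 0 in HCC827 and at 150, 138 and 146 in PC-9, at least 3229-fold higher. VGLL1, a cofactor of TEAD transcription factors, was at 0 in HCC827 and at 149, 133 and 149 in PC-9. Each PC-9 library held at least 2002 reads of each of these genes, and no HCC827 library held any. KRT13, a keratin of stratified epithelia, was between 0.06 and 0.31 in HCC827 and at 181, 160 and 169 in PC-9. PI3, which encodes the secreted elastase inhibitor elafin, was at 4.05, 4.46 and 5.17 in HCC827 and at 795, 573 and 701 in PC-9, and CASP14, a caspase of cornifying epidermis, was at 0 in HCC827 and at 104, 127 and 106 in PC-9. UCHL1, a neuronal deubiquitinase, went from at most 0.41 to 144, 146 and 156. None of these genes had overlapping ranges.

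In the other direction, DEFB4A, the inducible beta-defensin 2, was at 324, 246 and 496 in HCC827 with no read in PC-9 (log2 difference -8.42 ± 0.23 SE, adjusted p = 3.4e-07). The tables list the near-identical copy DEFB4B separately, so the division of reads between these genes is uncertain. CXCL5, a chemokine that attracts neutrophils, was at 129, 115 and 169 in HCC827 and at 0.09, 0.16 and 0.00 in PC-9. TNC, the matrix glycoprotein tenascin C, fell from 104, 102 and 97.5 to between 0.25 and 0.50. PCSK1N, an inhibitor of a prohormone convertase, was at 84.1, 90.6 and 103 against at most 0.60, and AZGP1, a secreted zinc-binding glycoprotein, at 52.0, 48.1 and 70.6 against at most 0.34. AC007325.2, annotated on an unplaced scaffold and with reads that may belong to related genes elsewhere, was at 123, 131 and 121 against at most 0.56.

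**Figure D1:**
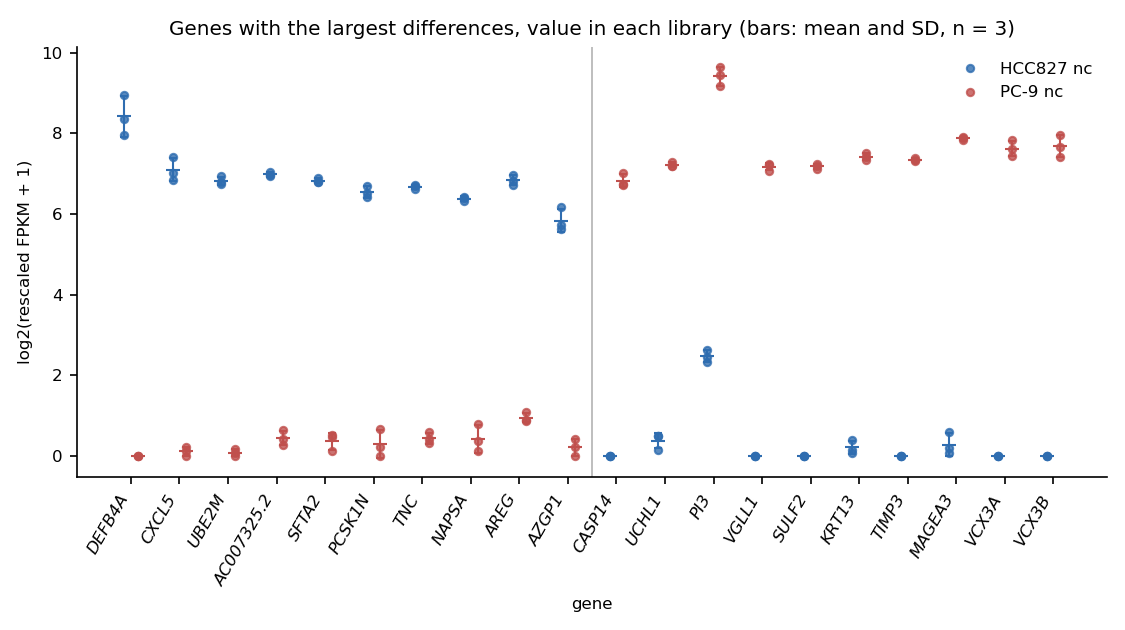
Level of the 10 protein-coding genes with the largest difference in each direction, as log2(rescaled FPKM + 1) on the vertical axis. Points are single libraries, 3 per line, and bars give the mean and SD. Left of the line HCC827 (blue) lies above PC-9 (red) and right of it the order is turned, with no overlap for any gene. TIMP3, SULF2, VGLL1, CASP14, VCX3A and VCX3B sit at 0 in every HCC827 library.

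A count of genes with at most 3 reads in every library of one line and a mean of at least 5 in the other gave 73 genes at the floor in PC-9, 43 of them protein-coding, and 114 at the floor in HCC827, 74 of them protein-coding. It includes short genes with few reads in the other line too, for which the floor does not tell the lines apart. TRBJ2-4 had 1 to 3 reads in PC-9, and MIR5587 had 2 to 5 in HCC827 and 1 to 2 in PC-9. The shSYK libraries, which were not used for this count, kept 37 of the 43 protein-coding genes at or under 3 reads in PC-9 and 59 of the 74 in HCC827. Besides DEFB4A, the protein-coding genes highest in HCC827 among those at the floor in PC-9 were UBE2M, IFI27, CT83 and NNMT. CT83, a cancer-testis antigen gene, was at 37.4, 37.2 and 38.4 in HCC827 and NNMT, nicotinamide N-methyltransferase, at 32.4, 31.7 and 28.4, and neither had a read in PC-9. BCL2A1, an antiapoptotic member of the BCL2 family, was at 10.4, 9.39 and 12.5 and also had no read in PC-9. SOX2, a transcription factor of airway and squamous epithelium, was at 17.3, 21.0 and 24.8 with at most 2 reads in PC-9.

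UBE2M stood out because it is a gene of general cell function. It encodes the E2 enzyme that passes NEDD8 to cullins, and it lies on chromosome 19 at chr19:58555712-58558960 (hg38, minus strand), near the end of the long arm. Its level was 107, 110 and 122 in HCC827, from 1505 to 2617 reads, and PC-9 held 2, 1 and 0 reads in its nc libraries and none in its shSYK libraries. EBC-1 nc cells expressed it at 139. Every gene listed beyond it on the chromosome was also at the floor in PC-9, and 3 of these had a mean of at least 1 in HCC827. MZF1, a zinc finger transcription factor gene, was at 2.50, 2.45 and 2.04 in HCC827 and had at most 2 reads in PC-9, and the pseudogene CENPBD1P1, at 7.22 ± 0.26 (SD, n = 3) in HCC827, had none. MZF1-AS1 had 41 to 44 reads in HCC827 and none in PC-9, and since MZF1 overlaps both MZF1-AS1 and CENPBD1P1, reads of these genes cannot be told apart without strand. Across the 7 genes listed from UBE2M on, the PC-9 nc libraries held at most 2 reads of any gene and the PC-9 shSYK libraries at most 1. On the other side of a gap of 588 bases, CHMP2A, a subunit of the ESCRT-III membrane complex, was at 48.2, 41.3 and 44.4 in PC-9 and 72.9, 63.8 and 76.9 in HCC827 (log2 difference -0.66 ± 0.10 SE, adjusted p = 0.00084). TRIM28, the next gene inward, was at 124, 78.8 and 97.0 in PC-9 and 280, 278 and 298 in HCC827. Of 16 tested protein-coding genes that start within 0.5 Mb of UBE2M, 12 were called lower and 2 higher in PC-9, beside 26.9% and 34.9% of all genes, with a median of -0.71. DNA copy number was not measured, and whether a loss of sequence goes with these values was not tested.

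Position also marked the genes around EGFR and CDK4, which were higher in HCC827 in blocks. EGFR itself (chr7:55019021-55211628, plus strand) was at 277, 297 and 231 in HCC827 and 58.0, 103 and 74.7 in PC-9, 3.42-fold higher in HCC827 (log2 difference -1.79 ± 0.21 SE, adjusted p = 0.00025). Its neighbours differed more. SEC61G, a subunit of the channel that brings proteins into the endoplasmic reticulum, was at 2101, 1849 and 1943 in HCC827 and 119, 139 and 134 in PC-9, a 15.0-fold difference. LANCL2, on the other side of EGFR, was at 135, 139 and 135 against 6.31, 5.99 and 6.45, a 21.8-fold difference, and VOPP1, next to LANCL2, was 5.08-fold higher in HCC827. These 4 genes were all higher in HCC827 with no overlap between libraries, and the difference of EGFR was the smallest of them.

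The next tested genes start more than 0.9 Mb from EGFR and differed less. PSPH, the last enzyme of serine synthesis, was lower in PC-9 by a log2 difference of -1.03 and MRPS17, a mitochondrial ribosomal protein gene, by -1.01. CCT6A, a chaperonin subunit, had -0.82, SUMF2 -0.72, PHKG1 -0.59 and CHCHD2 -0.27, each called. NIPSNAP2, which overlaps MRPS17, had 0.27 ± 0.17 SE and was not called (adjusted p = 0.22 by limma), although it was with PC-9 library 1 left out (0.46, adjusted p = 0.0056). Together 10 of the 11 tested protein-coding genes that start within 2 Mb of EGFR were called lower in PC-9, 6 of them at least 2-fold, beside 26.9% and 9.69% of all genes, with a median of -1.01 beside 0.10 over all genes, and in the shSYK libraries the same genes had a median of -1.11. CHCHD2 lost its call when HCC827 library 1, 2 or 3 or PC-9 library 2 or 3 was left out (adjusted p up to 0.12 by limma).

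A narrower block on chromosome 12 surrounded CDK4, the cyclin D-dependent kinase that phosphorylates RB1. CDK4 (chr12:57747727-57756013, minus strand) was at 794, 757 and 822 in HCC827 and 41.0, 30.9 and 34.3 in PC-9, a 22.3-fold difference (log2 difference -4.45 ± 0.11 SE, adjusted p = 2e-07). PIP4K2C, a phosphoinositide kinase gene (chr12:57591174-57603418, plus strand), was at 632, 645 and 621 against 23.4, 23.3 and 24.6, and OS9, a lectin of endoplasmic reticulum quality control, was 21.0-fold higher in HCC827. EBC-1 nc cells had 74.8 of CDK4, 25.2 of PIP4K2C and 53.0 of OS9, nearer to PC-9 than to HCC827. TSPAN31 had a difference of -2.35, but it overlaps CDK4 on the opposite strand and its reads near the shared end cannot be told apart from those of CDK4. Levels alternated within the block. DTX3 (-1.94) and METTL1 (-1.65) were lower in PC-9, whereas EEF1AKMT3, which overlaps METTL1, was higher (0.71). DCTN2, the next tested gene before PIP4K2C, had a difference of -0.24, and CTDSP2, which starts 72.2 kb from CDK4, had 0.69. Of the 16 tested protein-coding genes that start within 0.5 Mb of CDK4, 6 were at least 2-fold lower and none at least 2-fold higher in PC-9, beside 9.69% and 15.3% of all genes. CDK6, the related kinase on another chromosome, differed by -1.05, and RB1 by -0.24, which was not called. The genes around CDK4 and UBE2M were chosen after their values were seen, and a copy number difference was not tested at either place.

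**Figure D2:**
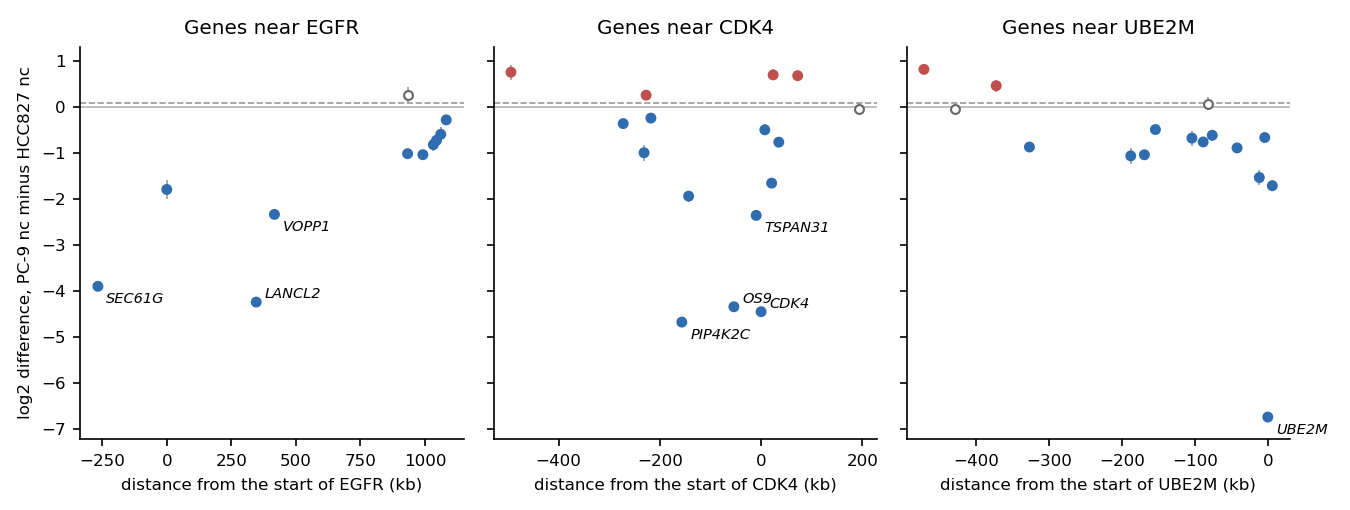
Log2 difference (PC-9 nc minus HCC827 nc, error bars SE) of the tested protein-coding genes against the distance of their start from the start of EGFR, CDK4 or UBE2M in kilobases. Filled points passed an adjusted p under 0.05, open points did not, and the dashed line is the median of all tested genes (0.10). SEC61G, LANCL2, PIP4K2C, OS9, CDK4 and UBE2M lie between -6.75 and -3.90, and the other genes between -2.35 and 0.83.

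Over whole chromosomes the medians were small beside these blocks. Chromosome 22 had the highest median over its protein-coding genes, 0.56 over 269 genes, followed by chromosomes 13 (0.41), 15 (0.39) and 19 (0.35). Chromosome 14 had the lowest, -0.45 over 343 genes. Of these, 93 were at least 2-fold lower and 28 at least 2-fold higher in PC-9, beside 9.69% and 15.3% of all genes. The shSYK libraries gave 0.61 for chromosome 22 and -0.61 for chromosome 14. A running median of 11 neighbouring genes passed 2 on the log2 scale, in either direction, in 6 stretches, a description chosen after the values were seen. Each stretch was then trimmed so that it began and ended with a gene at least 2-fold different in its direction. The counts and medians within stretches thus follow in large part from this selection and only describe it. On chromosome 22, the 14 tested genes from JOSD1 to TAB1 (chr22:38685543-39437060) were all higher in PC-9, 13 of them at least 2-fold, with a median of 2.18. They included the cytidine deaminase genes APOBEC3B, from 9.09 to 156, and APOBEC3C, from 9.66 to 98.9, and the growth factor gene PDGFB, from 3.30 to 37.9. These deaminases are close relatives in sequence, so single members are uncertain. On chromosome 8, 13 of 16 genes from LACTB2 to TPD52 were at least 2-fold lower in PC-9, with RPL7, a ribosomal protein gene, at 1646 in HCC827 and 242 in PC-9.

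Another stretch, found and trimmed in the same way, was a cluster of related genes. It lay on chromosome 4 (chr4:73740506-74794686) and held 9 tested genes, each at least 2-fold lower in PC-9, namely CXCL8, CXCL6, CXCL1, CXCL5, CXCL3, CXCL2, EREG, AREG and BTC. The first 6 encode chemokines that act on CXCR2 and the last 3 encode ligands of EGFR. AREG, amphiregulin, was at 112, 124 and 104 in HCC827 and 1.12, 0.87 and 0.82 in PC-9 (log2 difference -5.89 ± 0.10 SE, adjusted p = 5.4e-08). EREG, epiregulin, was at 41.2, 44.7 and 46.9 against 0.14, 0.64 and 0.33, and BTC, betacellulin, at 5.99, 6.58 and 5.39 against 1.06, 1.74 and 1.18. EPGN in the same cluster was below the filter, with a mean of at most 0.02 in either line. EBC-1 nc cells had 97.6 of AREG and 48.3 of EREG.

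Of the 11 ErbB ligand genes 5 were tested, and the tested ligands outside the chromosome 4 cluster were higher in PC-9. HBEGF, heparin-binding EGF, was at 1.94, 2.29 and 1.07 in HCC827 and 7.13, 7.12 and 8.14 in PC-9 (log2 difference 1.64 ± 0.18 SE, adjusted p = 0.0002). TGFA was at 6.75, 7.58 and 8.44 against 10.1, 13.3 and 12.1 (0.58 ± 0.13 SE, adjusted p = 0.0059). NRG1, a ligand of ERBB3, had a mean of 1.75 in HCC827 and 0.016 in PC-9 and was below the filter, as were EGF, NRG2, NRG3 and NRG4. Among the receptors, ERBB3 was higher in PC-9 (12.9 and 18.3, log2 difference 0.48), and ERBB2 was at 24.3 and 23.4 and was not called (-0.06 ± 0.10 SE, adjusted p = 0.61). ERBB4 had at most 0.02 in any library.

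The genes at the centre of the study form a list that it chose partly on these lines, so their direction here is not independent evidence. SYK itself, the kinase that the series knocks down, was at 8.50, 8.25 and 8.95 in HCC827 and 6.95, 7.16 and 6.66 in PC-9, a log2 difference of -0.27 ± 0.08 SE (adjusted p = 0.023 by limma). The call was lost when HCC827 library 1, 2 or 3 or PC-9 library 3 was left out, with adjusted p up to 0.096. MET, the receptor of hepatocyte growth factor, was at 77.4, 81.7 and 76.5 in HCC827 and 7.53, 14.8 and 11.4 in PC-9, 6.98-fold higher in HCC827. FOSL1, which encodes the AP-1 subunit FRA1, was 4.30-fold higher in HCC827. MUC1 (-1.99), CDH1 (-1.62), which encodes E-cadherin, and BIK (-1.43) were at least 2-fold lower in PC-9. AXL, a receptor kinase linked to resistance to EGFR inhibitors, was at 0.68, 0.82 and 0.35 in HCC827 and 6.85, 6.74 and 7.40 in PC-9, and SMAD3 (1.22) and CTGF (1.24) were also higher in PC-9. Smaller differences were called for FN1 (-0.50), VIM (-0.49) and SP1 (0.44), and each of these calls was lost when single libraries were left out, with adjusted p up to 0.077 for FN1 and 0.097 for VIM (without HCC827 library 1 or 2 or PC-9 library 3) and 0.14 for SP1 (with any library left out but PC-9 library 1). THBD (-0.08), SNAI1 (0.13), EPCAM (0.14), RAPGEF5 (0.26) and TGFB1 (0.41) were not called. With PC-9 library 1 left out EPCAM (0.33, adjusted p = 0.013 by limma) and RAPGEF5 (0.43, adjusted p = 0.0496) were called higher in PC-9, and with PC-9 library 2 left out TGFB1 was (0.57, adjusted p = 0.0062). CDH2, SNAI2, ZEB1 and SMAD2 were below the filter. In all, 9 of the 18 tested genes of the list were called lower and 4 higher in PC-9, beside 26.9% and 34.9% of all genes.

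Lung lineage genes were lower in PC-9 in larger number. Of 22 tested, 13 were called lower and 6 higher, 11 and 4 of them at least 2-fold, against 26.9% called lower and 34.9% higher over all genes, and the list median was -0.90 (range -1.22 to -0.90 over the scalings). NKX2-1, the lineage factor of alveolar cells, was at 51.1 in HCC827 and 2.08 in PC-9, and its targets NAPSA, the aspartic protease napsin A, and SFTA2, a surfactant-associated gene, fell from 82.2 to 0.37 and from 112 to 0.30. MUC5B, the airway mucin, had a log2 difference of -4.94, and LPCAT1, an enzyme of surfactant phospholipid synthesis, from 301 to 42.4. The members higher in PC-9 included SOX9, a factor of distal lung progenitors, from 0.67 to 25.2, CEACAM6 from 17.8 to 144 and GATA6 from 1.32 to 5.68. ELF3 (-0.06), KLF5 (0.19) and CEACAM5 (-0.09) were not called.

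Keratins and defence genes showed which epithelial products each line made. KRT7, KRT8, KRT18 and KRT19, keratins of simple epithelia, differed little between the lines, with KRT7 lower (-0.35) and KRT8 higher (0.36) in PC-9 and KRT18 (0.33) and KRT19 (0.25) not called. Among other keratins, those higher in PC-9 included KRT15 (5.24 and 67.1), KRT16 (0.35 and 32.5) and KRT23 (0 and 48.0) beside KRT13. KRT20 (13.6 in HCC827 and 0.26 in PC-9) and KRT6A (11.5 and 0.76) were lower in PC-9, so the list of 17 tested keratins had 7 members at least 2-fold higher and 2 at least 2-fold lower, beside 15.3% and 9.69% of all genes. Among 25 tested antimicrobial and S100 genes, 10 were at least 2-fold higher in PC-9 and 8 at least 2-fold lower, both above these shares of all genes. C3, the central complement component, rose from 2.72 to 64.0, S100A8 from 3.88 to 80.7, S100A9 from 352 to 2204 and SLPI, an antiprotease, from 54.7 to 351. Against this, S100A7 was at 11.5 in HCC827 and 0.07 in PC-9, PIGR, the receptor that carries immunoglobulins across epithelia, at 10.7 and 0.21, and LCN2 at 1467 and 685.

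Secreted proteases and their inhibitors were higher in PC-9 in 15 of 22 tested genes and lower in 6, beside 34.9% and 26.9% of all genes. At least 2-fold differences were found in 12 and 5, beside 15.3% and 9.69%, and the list median was 1.34. Kallikreins of the chromosome 19 cluster made up much of this. KLK5 rose from 0.06 to 117, KLK6 from 7.02 to 151, KLK7 from 0.08 to 11.7 and KLK8 from 0.05 to 16.6. PLAT, tissue plasminogen activator, rose from 0.91 to 91.3, whereas PLAU, the urokinase-type activator, fell from 115 to 44. MMP14 (2.99) and ADAM19 (3.98) were higher in PC-9, and MMP7 (-2.32), PRSS3 (-2.21) and TFPI (-2.06) lower.

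Epithelial junction genes had no common direction. Of 39 tested epithelial junction genes, 12 were called higher and 15 lower in PC-9, beside 34.9% and 26.9% of all genes, with a median of -0.10. CTNNA1, alpha-catenin, which ties E-cadherin to actin, was at 86.7, 85.4 and 80.6 in HCC827 and 5.76, 7.82 and 6.84 in PC-9 (log2 difference -3.46 ± 0.11 SE, adjusted p = 5.3e-07). DSC2 (-1.92) and OVOL2 (-1.70) were also lower, and PKP2 (2.20), CLDN1 (2.06) and RAB25 (1.88) were higher in PC-9. CTNNB1, beta-catenin, was at 39.6 and 44.6 and was not called. Of 27 tested mesenchymal genes, 12 were called higher and 9 lower, beside 34.9% and 26.9% of all genes. TWIST2 (-3.25), TGFBI (-2.86) and TNC were lower in PC-9, and LTBP2 (3.09), IGFBP3 (2.95) and AXL were higher. Collagen and laminin genes were more often higher in PC-9, with 9 of 19 at least 2-fold higher and 2 at least 2-fold lower, beside 15.3% and 9.69% of all genes. COL6A1 rose from 1.90 to 116, COL6A2 from 0.45 to 80.7 and LAMA4 from 0.00 to 9.54, while COL17A1 (19.1 and 0.40) and COL4A2 (10.3 and 0.05) fell. Of 11 tested integrins, ITGB4 (2.34), ITGB5 (1.75) and ITGA6 (1.44) were at least 2-fold higher and ITGAV (-1.48) at least 2-fold lower, beside 15.3% and 9.69% of all genes. At any size 4 were called higher and 5 lower in PC-9, beside 34.9% and 26.9% of all genes, with a median of -0.23.

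Interferon-stimulated genes encode antiviral proteins whose promoters bind the complex ISGF3 at an interferon-stimulated response element. Of 32 tested, 27 were called lower in PC-9 and 2 higher, against 26.9% and 34.9% over all genes, with 18 at least 2-fold lower and none at least 2-fold higher. The list median was -1.05 and ranged from -1.23 to -1.05 over the scalings, and it was -1.17 in the shSYK libraries. IFI27 was at 35.8, 35.9 and 45.6 in HCC827 with 2 reads in each PC-9 library. BST2, tetherin, which holds budding viruses at the cell surface, was at 86.1, 92.5 and 92.6 against 6.89, 6.01 and 5.28, a 14.9-fold difference. IFI6 was at 54.9, 53.0 and 57.0 against 4.25, 3.18 and 4.67. ISG15 (94.3 and 14.1) and IRF7 (12.7 and 2.25) were lower in PC-9 too. The members higher in PC-9 were OASL (1.67 and 3.97) and GBP2 (6.39 and 10.4).

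The promoters of these genes are shown because their members moved together. A form of the response element, GAAA followed by any 2 bases and again GAAA, was searched on both strands in windows from 250 bases before to 50 after each start, from RefSeq on GRCh38.p14, with overlapping matches on a strand counted once. Of the 18 genes at least 2-fold lower in PC-9, 15 had a window and 14 of these held the motif, and of all 32 tested members 25 had a window and 19 held them (76%). Among all 27305 genes with a window 4.38% held them. A match is a description of the sequence and not of binding. The stretches below lie before the start, 5′ to 3′ on the strand of the gene, with the matches in capitals.
IFI27 (chr14:94110616-94110675, plus strand): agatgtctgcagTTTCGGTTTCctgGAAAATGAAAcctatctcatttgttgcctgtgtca
BST2 (chr19:17405726-17405785, minus strand): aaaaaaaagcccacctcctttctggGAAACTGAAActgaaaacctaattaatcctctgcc
IFI6 (chr1:27672314-27672373, minus strand): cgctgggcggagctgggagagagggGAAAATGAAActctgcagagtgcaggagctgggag
ISG15 (chr1:1013359-1013418, plus strand): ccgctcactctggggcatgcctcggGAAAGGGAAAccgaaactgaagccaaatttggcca

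Much of the direction of the chemokine and cytokine list, but not all of it, came from the chromosome 4 cluster. Of 17 tested, 11 were called lower and 4 higher in PC-9, beside 26.9% and 34.9% of all genes, and 6 of the lower ones lie in that cluster. Outside it 5 of 11 were called lower and 4 higher, beside the same shares, with a median of 0.10, the same as over all genes. At least 2-fold differences outside it were found in 4 lower and 2 higher genes, beside 9.69% and 15.3% of all genes. CX3CL1 was at 13 in HCC827 and 0.05 in PC-9 and CSF2, the factor that drives granulocyte and macrophage growth, at 7.85 and 0.05. CSF1 (4.78 and 13.1) and IL1RN (0.94 and 3.38) were the members at least 2-fold higher in PC-9. Antigen presentation genes did not share a direction, with HLA-E higher in PC-9 (37.9 and 113) and CD274, which encodes PD-L1, lower (5.64 and 0.68) among 20 tested.

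Targets of NRF2, the transcription factor that answers oxidative and electrophilic stress, were higher in PC-9. All 26 were tested, 22 were called higher and 3 lower, beside 34.9% and 26.9% of all genes. At least 2-fold differences were found in 14 and 2 of them, beside 15.3% and 9.69%, with a median of 1.24 (1.09 to 1.24 over the scalings) and 1.13 in the shSYK libraries. The aldo-keto reductases led. AKR1C2 had at most 0.08 in HCC827 and 53.7, 54.6 and 55.1 in PC-9 (log2 difference 5.73 ± 0.08 SE, adjusted p = 3.1e-08), AKR1C3 rose from 2.18 to 59.6 and AKR1B10 from 6.22 to 115. AKR1C genes lie in one cluster and are near-identical in parts, so the division of reads between them is uncertain. NQO1, which reduces quinones, was at 94.1 and 227, and GCLM and GCLC, the subunits of the enzyme that limits glutathione synthesis, rose from 5.92 to 29.3 and from 4.17 to 16. The ferritin genes FTL (459.9 and 2049) and FTH1 (403 and 1174) followed. SLC3A2 (112 and 39.2) and ABCC2 (15.1 and 5.69) were at least 2-fold lower in PC-9. The core letters of the antioxidant response element, TGACNNNGC, were found in 2 of the 9 genes at least 2-fold higher that had a window, and in 6 of 18 tested members (33.3%), beside 16.1% of all genes with a window.

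Genes of drug and aldehyde metabolism shared part of this direction, with 11 of 33 tested genes at least 2-fold higher and 6 at least 2-fold lower in PC-9, beside 15.3% and 9.69% of all genes. ALDH3A1 rose from 0.03 to 68.3, ALDH1A3 from 19.4 to 209 and CYP4F11 from 0.23 to 18.1. NNMT, ABCC4 (5.69 and 1.44) and FMO5 (3.01 and 0.47) were lower.

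Cancer-testis genes, normally silent outside the germ line, had a list median of 2.61. Of 40 genes in it 14 were tested, 9 higher and 5 lower in PC-9, each called, beside 34.9% and 26.9% of all genes. The other 26 were below the filter. Members near 0 in a line passed the filter only through the other line. That such members were called, and the size of the median, were therefore largely set by the filter and cannot be weighed against all genes. MAGEA3 was at 0.51, 0.14 and 0.05 in HCC827 and 238, 227 and 235 in PC-9, MAGEA6 at 0.18 ± 0.04 against 113 ± 4.66 (SD, n = 3), and MAGEA4 at 0 against 101, 89.3 and 97.8. MAGEA12 (69.9 in PC-9) and its neighbour CSAG1 (69.9) had no read in any HCC827 library. HCC827 expressed another set, CT83 and the near-identical XAGE1A (12.6 and 0.04) and XAGE1B (10.2 and 0.08), with PRAME at 3.81 and 0.19. VCX3A and VCX3B, near-identical genes of the X chromosome, were at 226, 172 and 194 and at 247, 169 and 202 in PC-9 with no read in HCC827.

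The MAGEA promoters are shown because the genes moved together and are close copies, whose reads may be divided between them. The 250 bases before the start of MAGEA3 and MAGEA6 were identical at 250 positions. The longest run shared by the windows of MAGEA3, MAGEA6 and MAGEA12 had 27 bases and was found in 6 of 35116 windows on either strand, those of MAGEA2, MAGEA2B, MAGEA3, MAGEA6 and MAGEA12. MAGEA4, CSAG1 and CSAG3 did not hold it, although they were expressed in the same line. The window of CSAG1 (chrX:152733672-152733971, minus strand) overlaps that of MAGEA12 on the opposite strand. In the stretches below the shared run is in capitals.
MAGEA3 (chrX:152698544-152698621, plus strand): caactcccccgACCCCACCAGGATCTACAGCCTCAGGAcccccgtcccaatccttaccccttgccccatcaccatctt
MAGEA12 (chrX:152733552-152733658, plus strand): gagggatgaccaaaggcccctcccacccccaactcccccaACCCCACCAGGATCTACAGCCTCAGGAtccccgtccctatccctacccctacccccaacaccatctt

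Runs of neighbouring genes at the floor in one line were searched among genes of any type with a mean of at least 1 in the other, a search chosen after values were seen. At least 3 neighbours in a row were at the floor in 9 places in PC-9 and in 19 places in HCC827. Some runs hold short RNAs with few reads in both lines, for which the floor does not tell the lines apart. MIR27B had 1 read in each HCC827 library and 1 to 8 in PC-9. MIR4449 had 1 to 2 reads in HCC827 and 0 to 1 in PC-9. The longest run, 10 genes on chromosome 7 (chr7:142796365-142885762), was at 0 in every HCC827 library. It held 7 joining segments and the constant segment TRBC2 of the T cell receptor beta locus, followed by EPHB6, a kinase-inactive Eph receptor, and TRPV6, a calcium channel. TRBC2 was at 44.9, 38.7 and 39.8 in PC-9 and EPHB6 at 37.8, 30.8 and 34.2. The T cell genes CD3D and CD3E had means of at most 0.03 in PC-9. TRBC2 has a near-identical counterpart in TRBC1, so its identity is uncertain.

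Genes of cell division rarely differed by 2-fold. Of 39 tested replication and mitosis genes, 1 was at least 2-fold higher in PC-9 and 1 at least 2-fold lower, beside 15.3% and 9.69% of all genes, with a median of 0.03 that turned negative under other scalings. CDK1 was at 8.75, 9.26 and 8.03 in HCC827 and 15.7, 38.8 and 29.1 in PC-9, and AURKB at 60.5 and 29.2. MKI67, a marker of dividing cells, was at 14.4 and 16.3 and was not called. Of 29 tested glycolysis and hypoxia genes, 4 were at least 2-fold higher and 7 at least 2-fold lower, beside the same shares. SLC2A3, a glucose transporter, rose from 0.13 to 92.2 and CA9, a carbonic anhydrase induced by hypoxia, from 0.02 to 12.8, while PGK1 fell from 488 to 135, ENO1 from 1549.5 to 491 and BNIP3 from 37.9 to 6.78. GAPDH was at 2161 and 1964 and was not called. Of 13 mitochondrially encoded genes, 7 were called lower in PC-9, led by MT-CYB (-1.27), and none higher, beside 26.9% and 34.9% of all genes. The summed level of these genes ran from 16997 to 25706 in the PC-9 libraries and from 27645 to 29683 in HCC827, and PC-9 thus had the wider range.

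Other receptor kinases and survival genes were mixed. EPHA4 (0.03 and 3.57) and EPHA1 (5.45 and 21.9) were higher in PC-9, and MERTK (3.90 and 0.47) and FGFR3 (10.1 and 3.51) lower. Among ERK feedback genes DUSP4 (5.58 and 40.3), ETV4 (14 and 56.0) and ETV5 (5.44 and 13.9) were at least 2-fold higher in PC-9, while PHLDA2 (197 and 19.2), EGR1 (64.1 and 7.43) and FOSL1 were lower. Of 23 tested, 7 were called higher and 11 lower, beside 34.9% and 26.9% of all genes. In the BCL2 family, the proapoptotic BID (2.06 and 17.2) and BOK (14.6 and 54.7) were higher in PC-9, and BCL2A1, BIK and PMAIP1 (17.5 and 7.32) lower. CDKN2A, the inhibitor of CDK4 and CDK6, was at 202 in HCC827 and 87.0 in PC-9, and its neighbour MTAP at 6.89 and 2.22. Among stem-like markers CD44 (19.9 and 88.3) and NES (1.01 and 6.50) were higher in PC-9. HOXC13 (1.61 and 11.9) and HOXB5 (0.94 and 3.79) were higher and HOXC10 (7.19 and 0.89) and HOXA10 (3.93 and 0.38) lower among 11 tested HOX genes. Of 7 tested mucins, MUC20 (2.23 and 15.3) was at least 2-fold higher, and MUC5B, MUC13 (3.22 and 0.01) and MUC1 at least 2-fold lower. Of all genes 15.3% were at least 2-fold higher and 9.69% at least 2-fold lower.

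**Figure D3:**
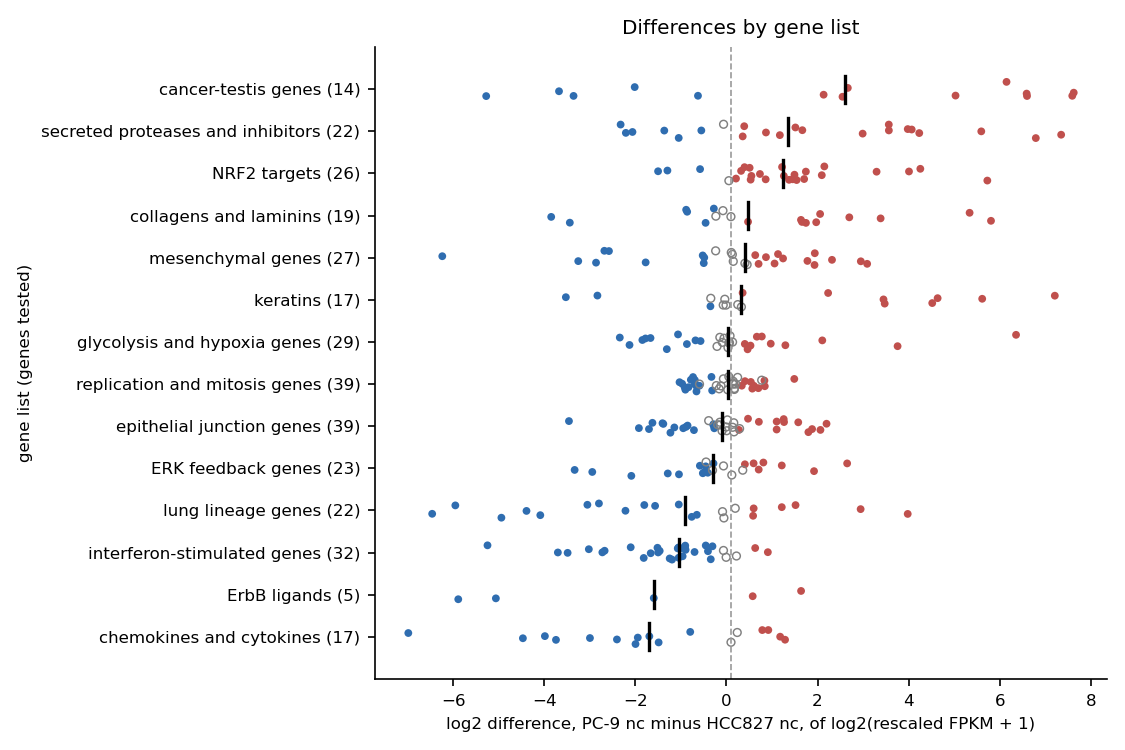
Log2 difference (horizontal axis, PC-9 nc minus HCC827 nc) of the tested members of 14 gene lists. Each point is a gene, filled where the adjusted p was under 0.05 (red higher in PC-9, blue higher in HCC827) and open where not. Black bars are list medians and the dashed line the median of all tested genes (0.10). Among the lists shown, cancer-testis genes have the highest median (2.61) and chemokines the lowest (-1.69), and replication and mitosis genes cluster round 0.

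The shSYK libraries of the same lines repeated the comparison in samples that the nc comparison did not use, although in the same tables. Between PC-9 shSYK and HCC827 shSYK, 25.0% of 12405 tested genes were called with at least a 2-fold difference. Of the 3103 genes called at 2-fold in the nc libraries, 2917 were tested and 2903 had the same sign (99.5%). At any size of difference, 2865 were called again with that sign (98.2%). Of these, 2444 differed by at least 2-fold, the measure behind the 25.0%. At any size, 61.8% of all tested genes were called in the nc libraries, and the matching share in the shSYK libraries is not given here. Of the 352 genes at 8-fold, 344 were tested and all 344 had the same sign, with 343 called again. UBE2M had a difference of -6.48 in the shSYK libraries, CDK4 -4.51, AREG -5.69 and MAGEA3 7.77, against -6.75, -4.45, -5.89 and 7.59 in the nc libraries.

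**Figure D4:**
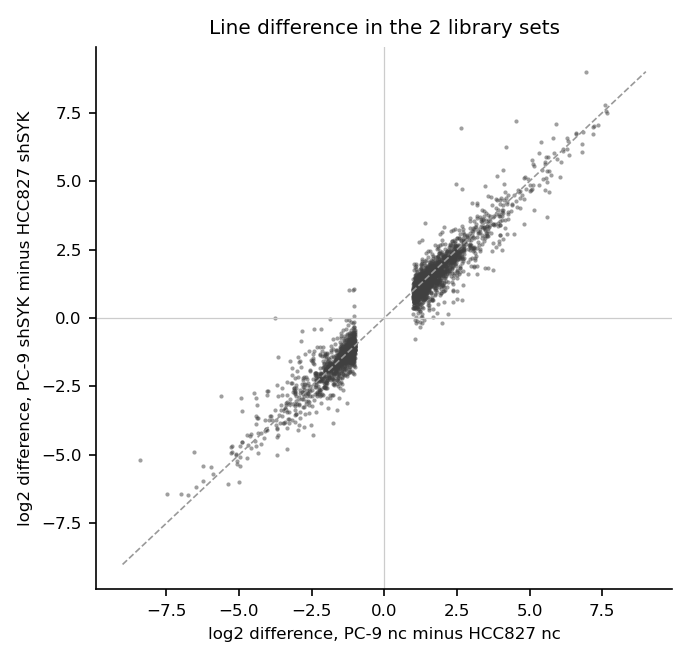
Log2 difference between the lines in the nc libraries (horizontal) and in the shSYK libraries (vertical) for the genes called at least 2-fold in the nc libraries and tested in both. Each point is a gene, and the dashed line marks equal differences. Nearly all points lie to the lower left and upper right of the origin, 2903 of 2917 with the same sign.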

How the data were processed

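TRIzol RNA was sequenced by Novogene (Illumina HiSeq), with hg38 as the genome. The submitters' processing notes name CASAVA and HISAT2, and the counting program was not given in the sources used here. The authors deposited FPKM per gene, 1 table for each line, and the 3 tables list the same 58302 genes with the same lengths. Reads per gene were recovered, because the product of FPKM and length is an integer times 1 constant per library (100% of values within 0.01 of a whole number), whose definition is not stated. Libraries were rescaled to the mean FPKM sum. Genes with a mean of at least 1 were fitted in limma 3.58.1 (R 4.3.3) on log2(value + 1) with a variance trend, two-sided, with Benjamini-Hochberg adjustment, and called at an adjusted p under 0.05. An exact permutation test of 3 against 3 cannot go below p = 0.1 and was not used. Tested on simulated data, 49.5% of 200 genes changed by 1 and 95% changed by 3 on the log2 scale were recovered, with 7 and 8 false calls. The simulation changed only 200 genes, against 7659 called here, and gave both lines the same spread although PC-9 spread more. Its shares therefore do not give the recovery in these data. Replicates were not copies of each other. Chi-square per degree of freedom ran from 2.44 to 6.41 between HCC827 libraries and from 9.47 to 38.7 between PC-9 libraries. PC-9 library 1 gave 38.7 against library 2 and 14.3 against library 3. Gene positions overlapped GENCODE v44 for 99.96% of 57532 shared genes. Named genes were the 10 with the largest difference in each direction, the study genes, ErbB receptors and ligands, up to 3 per direction from other lists, 5 floor genes per direction and the genes near EGFR, and further genes were added after their values were seen. The members and lists were chosen with earlier results of these data known. Alternatives covered the pseudocount, filter, scaling, model, replicate block and each library left out, with the removal of length and GC trends added after seeing the data. Genes on chromosome Y are not reported. Some genes and 1 region are not reported here.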

Additional observations from a re-analysis of the deposited data

Results flagged for a closer look

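The difference between the lines was compared between the shSYK and the nc libraries in a limma fit of 12 libraries, as the shSYK difference minus the nc difference on the log2 scale. Of 12402 genes 807 passed an adjusted p under 0.05 (6.51%), 207 of them with a change of at least 2-fold in the difference. Of the 178 tested named genes 48 passed, 22 of them with such a change. Many named genes were chosen by their nc difference, which enters this test, so their share cannot be set against that of all genes. Each gene in this paragraph was noted for passing that test of the difference itself. S100A7 had the largest change among the named genes (3.65), with 11.5 in the nc libraries and 0 in the shSYK libraries of HCC827 and 0.07 and 0.10 in those of PC-9. DEFB4A (3.23) fell from 356 to 42.0 in HCC827, AZGP1 (2.76) from 56.9 to 6.96 and KRT6A (2.37) from 11.5 to 3.02. For PI3 (2.03), the HCC827 level went from 4.56 to 0.64 and the PC-9 level from 689.5 to 818. Levels of the following genes were higher in the shSYK libraries of HCC827 than in its nc libraries. VIM (-1.54) was at 1.71 and 15.0, CTGF (-1.57) at 1.03 and 4.17, CSF1 (-1.24) at 4.78 and 10.3 and CLDN1 (-1.48) at 3.99 and 15.5. CTGF thus had a difference of 1.24 between the lines in the nc libraries and -0.33 in the shSYK libraries. The other positive values of at least 1 were 1.63 for AC007325.2, 2.01 for MUC5B, 1.72 for CXCL1, 1.21 for SOX2, 1.30 for CXCL2 and 1.67 for PIGR, and further 1.36 for EGR1, 1.06 for TGFBI, 1.20 for DDC, 1.27 for MMP7 and 1.15 for FMO5. The other negative ones were -1.31 for BST2 and -1.25 for PECAM1. Positive values under 1 were 0.82 for TNC, 0.98 for KRT20, 0.99 for PHLDA2, 0.85 for PRSS3, 0.92 for PFKFB3, 0.995 for MUC13 and 0.60 for PGK1, with 0.77 for SLC3A2, 0.69 for TGFA, 0.86 for NOTCH3, 0.60 for IGFBP3, 0.60 for ALDH1A3, 0.77 for C3 and 0.76 for COL6A2. Negative values under 1 in size were -0.99 for NNMT, -0.89 for BTC, -0.99 for BIK, -0.53 for NES, -0.69 for AXL and -0.48 for MUC20, with -0.63 for PLAT, -0.50 for AKR1C2, -0.93 for ALDH3A1, -0.73 for KLK5, -0.47 for SULF2 and -0.31 for TIMP3. The groups held 3 libraries each and were too small for a test of single outlying libraries.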

How the results depend on the processing

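A filter at a mean of 5 left 4824 genes called and 1770 at 2-fold, since fewer genes were tested. The count at 8-fold was 960 with limma-voom on the recovered reads and 956 with a pseudocount of 0.1, whose smaller prior value raises the difference of low genes. Genes at the floor numbered 187, 78 at 0 reads in every library and 1069 with a mean of at least 1 in the other line. The median near EGFR was -1.17 with FPKM as deposited, -1.14 with median-of-ratios scaling, -1.13 with quantile normalization and -1.25 with limma-voom, and the cause was not tested. In a window of 1 Mb, which leaves out CCT6A, SUMF2, PHKG1 and CHCHD2, it was -1.79. With each library left out in turn, 6445 to 8699 genes were called, 3042 to 3276 at 2-fold and 348 to 356 at 8-fold, 189 to 204 genes were at the floor, and the EGFR median ran from -1.04 to -0.97. All other alternatives kept these counts within 1.5 times. The share of 2-fold calls that were called again with the same sign in the shSYK libraries, at any fold, ran from 97.6% to 99.4%. The libraries share only a replicate number (correlations of same-numbered deviations -0.05, 0.19 and -0.04), and the replicate block left 7542 genes called, 3113 at 2-fold and 352 at 8-fold. Of 3338 values for 178 named genes, 3287 kept their direction and side of the threshold, and 35 for 6 genes (FN1, VIM, CHCHD2, SYK, SP1 and CSAG2) lost the call, while 8 for 4 genes (EPCAM, RAPGEF5, NIPSNAP2 and TGFB1) gained one. TGFB1 was called with the replicate block (adjusted p = 0.042 by limma) and in the fit of 12 libraries (0.039), and RAPGEF5 (0.017) and NIPSNAP2 (0.0066) with length and GC trends removed. Values of 4 uncalled genes changed sign. With libraries left out, THBD ran from -0.155 to 0.031, ERBB2 from -0.149 to 0.016 and EPCAM from -0.0084 to 0.33, the sign turning without PC-9 library 1 for THBD and without PC-9 library 2 for ERBB2 and EPCAM. SNAI1 was at -0.067 with length and GC trends removed and -0.029 with quantile normalization, and EPCAM at -0.040 with FPKM as deposited, -0.0036 with limma-voom and -0.0035 with median-of-ratios scaling. Depth limits genes near 3 reads per library, for which a value of 0 is not absence.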
